A study of Mus musculus with 2 samples.

Results

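Immediate early response genes were followed in single-cell RNA of marrow from mouse long bones, with 1 adult library and 1 old library (2 libraries in all). The set holds 35 genes, taken by symbol from the 34144 genes listed in both libraries, and all 35 were found in each. They were described gene by gene and as a summed share of all unique molecular identifiers (UMIs, the counted RNA molecules). Both were given per library and per cell group defined by marker genes, blood cells included.

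The mice of both groups were wild-type C57BL6 (named C57BL6J in the protocol), and the labels give age only as the words adult and old. Flushed long bones were digested in warm buffer with collagenase IV, dispase and DNase, and red cells were lysed with NH4Cl. Haematopoietic cells were then depleted on an autoMACS separator, and live cells were sorted by scatter and DAPI for 10x Chromium 3' libraries. The label calls the sorted cells stromal. The sources used here do not give the number of mice, their sex, their age in months or any pooling. With 1 library per age there is no spread between replicates and no test. Intervals in brackets are exact 95% counting intervals, which cover counting error only.

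Immediate early genes are switched on within minutes of a signal, without new protein synthesis, through factors already present in the cell such as SRF, CREB and NF-kB. They encode transcription factors (FOS, JUN, EGR, KLF and NR4A families) and feedback inhibitors that damp the response, among them phosphatases of MAP kinases, RNA decay factors and inhibitors of cytokine signalling. Growth factors, cytokines and mechanical strain induce them in bone marrow stroma, and so do the enzymes and handling used to free cells from tissue.

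The sequences just upstream of these genes carry some of the sites such signals act on. RefSeq windows of 250 bases before and 50 after the start (GRCm38.p6) matched 30 of the 35 genes by symbol, and Fosl1, Egr1, Egr3, Ier2 and Myc had none. Both strands were searched. The EGR site (GCGNGGGCG) was in the windows of 12 genes (40% of 30), against 6.27% of the 27025 genes with a window. The cAMP response element (CRE, TGACGTCA), which CREB binds, was in Btg2, Dusp1 and Maff (10% against 2.03%). The CArG box, which SRF binds, was in Egr2 and Zfp36 (6.67% against 1.81%), and an NF-kB site in 7 genes (23.3% against 5.14%). The TATA box (TATAAA) was in 8 genes (26.7% against 15.7%), and the AP-1 site (TGANTCA), bound by the FOS and JUN proteins themselves, in Csrnp1 and Zfp36l1 only (6.67% against 8.97%). The 250 bases before the start had a median of 64.8% G and C in these genes against 52.4% in all genes, and sites rich in those letters are found more readily in such windows. A match describes letters and does not show a working site. Only full matches to these letters within the window were searched. A gene without a match may thus still have such a site with other letters or farther away. The 250 bases before the start are printed for 4 genes, the first being Fos, a main source of member UMIs in CAR cells. The others were picked among members lower in old CAR cells, Btg2 and Dusp1 for their CRE and Zfp36 for its CArG box. Capitals mark the TATA box in Fos, the CRE in Btg2 and Dusp1, and the CArG box in Zfp36. The windows lie at chr12:85473640-85473889 on the forward strand for Fos, and on the reverse strand at chr1:134079156-134079405 for Btg2, chr17:26508473-26508722 for Dusp1 and chr7:28379229-28379478 for Zfp36.
Fos: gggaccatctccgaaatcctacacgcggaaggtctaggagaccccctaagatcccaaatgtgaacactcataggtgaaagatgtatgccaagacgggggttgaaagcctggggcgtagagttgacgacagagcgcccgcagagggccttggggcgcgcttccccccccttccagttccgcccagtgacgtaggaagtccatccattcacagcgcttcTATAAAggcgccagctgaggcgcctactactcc
Btg2: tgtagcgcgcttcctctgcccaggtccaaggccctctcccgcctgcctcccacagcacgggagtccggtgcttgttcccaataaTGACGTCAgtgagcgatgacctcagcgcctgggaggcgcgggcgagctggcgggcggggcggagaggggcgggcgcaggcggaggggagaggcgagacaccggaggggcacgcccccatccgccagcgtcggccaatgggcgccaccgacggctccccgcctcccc
Dusp1: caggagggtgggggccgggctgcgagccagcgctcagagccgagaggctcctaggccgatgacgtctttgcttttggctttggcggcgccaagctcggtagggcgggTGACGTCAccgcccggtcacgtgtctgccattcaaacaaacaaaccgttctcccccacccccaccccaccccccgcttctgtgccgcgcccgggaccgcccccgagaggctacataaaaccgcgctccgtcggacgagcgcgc
Zfp36: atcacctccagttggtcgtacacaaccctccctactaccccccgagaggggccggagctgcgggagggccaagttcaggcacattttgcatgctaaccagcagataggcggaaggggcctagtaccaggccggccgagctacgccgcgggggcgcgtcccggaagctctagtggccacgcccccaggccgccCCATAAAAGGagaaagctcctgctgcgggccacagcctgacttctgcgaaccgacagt
The CRE lay at positions -166 to -159 from the start in Btg2 and at -143 to -136 in Dusp1. The CArG box of Zfp36 lay at -58 to -49 and the TATA box of Fos at -33 to -28.

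After removal of barcodes with under 500 genes or over 10% mitochondrial UMIs, 22403 adult and 18975 old cells remained, with medians of 7139 and 7736 UMIs. The libraries shared 152 barcodes. Cells were gated on marker genes of 15 cell types, and a gate is a range of a marker score, not a type. The 7 gates with at least 50 cells in both libraries were CXCL12-abundant reticular (CAR) cells (14066 adult and 13384 old), the perivascular stroma that supports blood stem cells, cells passing both the CAR and the osteolineage limit (1151 and 61), osteolineage cells (1412 and 576), endothelial cells (1281 and 286), pericytes or smooth muscle cells (364 and 171), erythroid cells (137 and 306) and megakaryocytes (439 and 347). A further 2226 and 1634 cells passed no gate, and 1143 and 274 passed several. Within 0.2 of the CAR limit, on the inner side, lay 753 adult and 828 old CAR-gated cells. The sorted fraction was thus not stroma alone, as 1250 old cells also passed the plasma cell gate.

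Over all kept cells, early response genes made up 1.29% of adult and 0.816% of old UMIs, a log2 ratio of -0.66. The difference was not of one size in all cell groups. The summed share was 1.42% in adult and 0.914% in old CAR-gated cells (log2 -0.64, -0.64 to -0.63). In pericytes or smooth muscle cells it was 2.05% and 1.13% (-0.86, -0.89 to -0.83), the widest gap of the 7 gates. In osteolineage cells it was 1.07% and 0.723% (-0.57, -0.58 to -0.56), and in cells passing both the CAR and the osteolineage limit 1.11% and 0.947% (-0.23, -0.26 to -0.20). These 4 mesenchymal gates had the lower share in the old library over all their cells. In cells of 4000 to 12000 UMIs the log2 ratio was -0.033 in the osteolineage gate and 0.089 in the CAR and osteolineage gate. The gap was thus not seen in that depth window, while osteolineage cells of some other depth bands did show it (below). Endothelial cells had nearly equal shares, 0.943% and 0.885% (-0.09, -0.12 to -0.06). Among blood cells, erythroid cells had low shares at both ages, 0.292% and 0.245% (-0.25, -0.31 to -0.20). Megakaryocytes had 0.522% (adult) and 0.638% (old), the 1 gate with the higher summed share in the old (0.29, 0.24 to 0.34). How far the gates differ from each other in this ratio was not tested, as each age has 1 library.

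Single cells were also compared after each was thinned to 1000 UMIs, with shallower cells left out (48 adult and 156 old in the CAR gate, and 0 to 23 per library in each other gate compared). In CAR-gated cells the median share was 1% (adult) and 0.6% (old). The 10th and 90th percentiles were 0.3% and 3.1% in adult against 0.2% and 2% in old cells, so the upper end of the old range lay lower, while the lower ends are only a few UMIs per cell. Without thinning the medians were 1.03% and 0.643%. In pericytes or smooth muscle cells the thinned median was 1.3% (adult) and 0.6% (old), and in osteolineage cells 0.8% and 0.5% (without thinning 1.29% and 0.578%, and 0.915% and 0.491%). Endothelial cells ran the other way by this measure, with medians of 0.5% and 0.7% (0.532% and 0.685% without thinning), while their 90th percentile was 2% (adult) and 1.4% (old). The upper tail of adult endothelial cells thus weighs more in their summed share than in their median. Megakaryocytes had a median of 0.2% at both ages (0.208% and 0.164% without thinning), so their higher summed share in the old library was not seen in the medians.

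**Figure D1:**
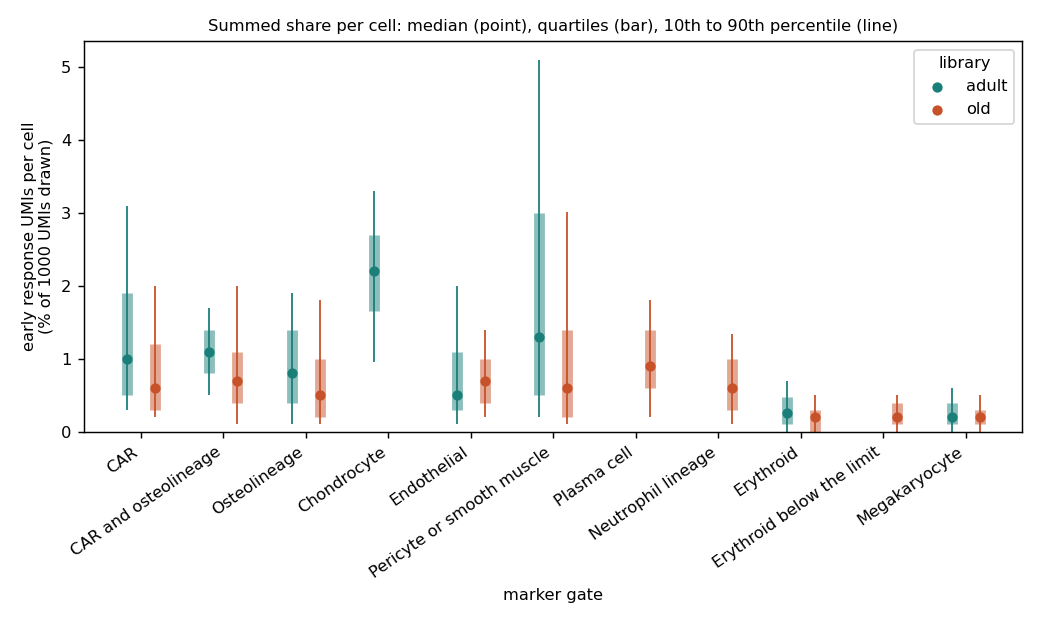
Share of each cell's UMIs from the 35 early response genes after thinning to 1000 UMIs, in percent, by marker gate (x axis) and library (colour); points are medians, bars quartiles and lines the 10th to 90th percentiles. Medians of CAR-gated cells are 1% (adult) and 0.6% (old), those of endothelial cells 0.5% and 0.7%.

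Further cell groups had too few cells in 1 of the libraries for a comparison. Adult chondrocyte-gated cells (120 cells) had the share of 2.32%, with Fos at 3726 CPM (UMIs of the gene scaled to a common total per group), Jun at 2416 and Atf3 at 1241 CPM. Old plasma cells (1250 cells) had 1.07%, with Fos at 2189, Jun at 1831 and Jund at 1615 CPM but Btg1 at 19.8 and Zfp36l1 at 349.8 CPM. Old plasma cells therefore carried a larger share than old CAR-gated cells. Cells outside the gates or the filters were looked at as well. Old cells with a weaker erythroid score (574 cells) had 0.255%, like the erythroid gate. Barcodes with too few genes had 0.313% (adult) and 0.226% (old), and those over the mitochondrial limit 0.553% and 0.473%.

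In CAR-gated cells nearly all members were lower in the old library. A gene was counted where its higher value reached 50 CPM and 50 UMIs, and was called apart at 2-fold or more. A gene could thus be counted through 1 library alone, as Nr4a3, Nr4a1 and Atf3 were through the adult library here. The same rule held for all genes. Of the 35 members, 26 were counted, 25 of them were lower in the old library and 7 were at least 2-fold lower, with a median log2 ratio of -0.66. Over all 4179 genes counted in these cells, 49.1% were lower by any amount, 1.72% were at least 2-fold lower and the median was 0.01. No member was at least 2-fold higher, against 2.63% of all genes. Leaving out cells over 5% mitochondrial UMIs, cells outside 4000 to 12000 UMIs, or those near the gate limit kept the log2 ratio of the summed share between -0.65 and -0.63. The CAR markers together were at 19715.2 CPM (adult) and 20345.5 CPM (old) in this gate. The osteolineage markers together differed, at 8723 and 4145 CPM. The part of that difference in the member values was not tested.

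**Figure D2:**
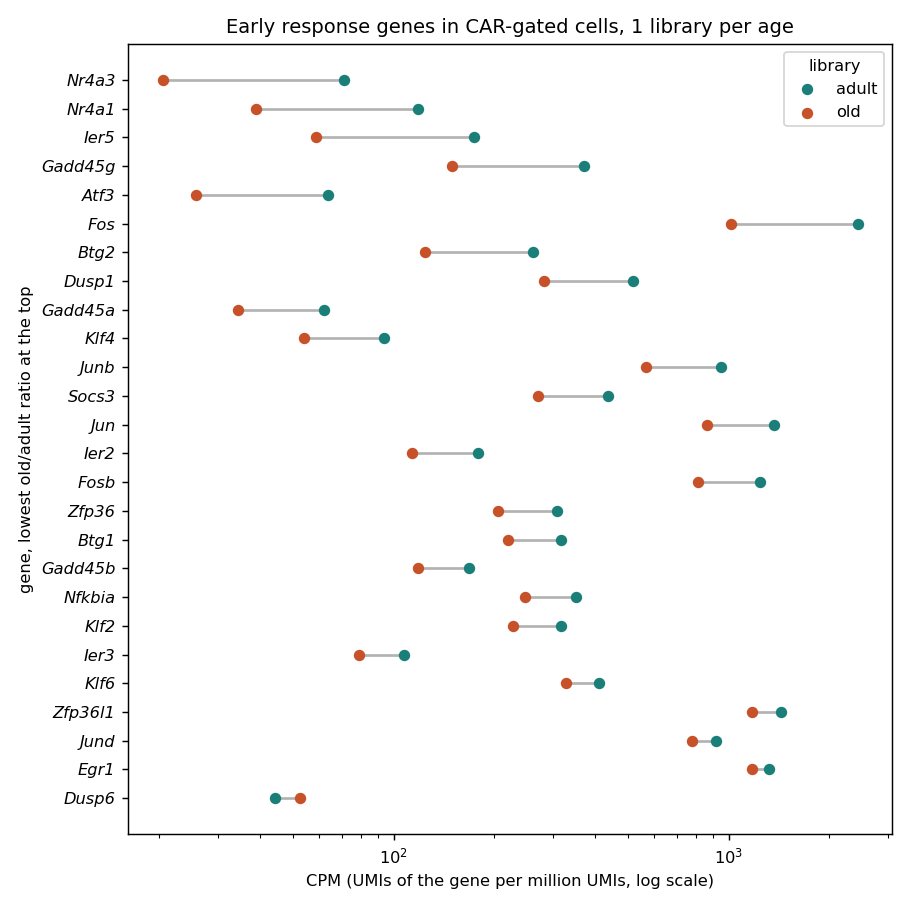
CPM (log axis) of the 26 counted early response genes in CAR-gated cells of the adult and old library, 1 point per library, ordered by ratio. Nr4a3 is at the top (71.1 and 20.5 CPM) and Dusp6, at the bottom, is the 1 gene with the higher value in the old library (44.4 and 52.7 CPM).

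The AP-1 genes encode the leucine zipper proteins that pair into the AP-1 transcription factor, and all 6 counted were lower in old CAR-gated cells (median log2 -0.71). Fos (ENSMUSG00000021250) stood at 2430 CPM (adult) and 1014 CPM (old), 2.40-fold lower (log2 -1.26, -1.27 to -1.25). Atf3, a stress-induced partner, stood at 63.7 and 25.8 CPM, 2.47-fold lower (-1.31, -1.37 to -1.24). The other 4 did not reach 2-fold. Junb was at 952.4 and 565.5 CPM (-0.75), Jun at 1365 and 860.7 CPM (-0.66), Fosb at 1245 and 809.8 CPM (-0.62) and Jund at 918 and 776 CPM (-0.24). JunD is the family member known to be made steadily in resting cells. Fos alone supplied 17.1% of all member UMIs in adult and 11.1% in old CAR-gated cells. Fosl2 (33.2 and 28.4 CPM), Maff (19.5 and 16.9 CPM) and Fosl1 (1.72 and 1.68 CPM) were under the minimum.

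The zinc finger factors differed less between the libraries. Egr1, the growth factor-induced founder of its family, was at 1319 and 1176 CPM (log2 -0.17, -0.18 to -0.16), the smallest gap among the members counted that were lower. Its relatives Egr2 (11.1 and 9.46 CPM) and Egr3 (22.2 and 15.1 CPM) were under the minimum. Klf4 was at 93.8 and 54.0 CPM (-0.80), Klf2 at 315.4 and 228 CPM (-0.47) and Klf6 at 410.7 and 327.7 CPM (-0.33). Klf2 and Klf4 are known in vessels as factors induced by flow. Egr1 made up 9.29% of adult and 12.9% of old member UMIs in this gate.

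The NR4A genes, orphan nuclear receptors regulated by their own induction, held the lowest ratios. Nr4a3 was at 71.1 and 20.5 CPM, 3.47-fold lower (log2 -1.79, -1.86 to -1.73). Nr4a1 was at 118.5 and 38.9 CPM, 3.05-fold lower (-1.61, -1.66 to -1.56). Nr4a2, under the minimum, was at 17.3 and 7.21 CPM. Among the other nuclear regulators, Ier5 was 2.95-fold lower, at 173 and 58.8 CPM (-1.56, -1.60 to -1.52). Ier2 was at 178 and 114 CPM (-0.65) and Ier3, which protects cells from apoptosis, at 108 and 78.9 CPM (-0.45). Under the minimum, Myc was at 46.1 and 25.02 CPM and Csrnp1 at 8.24 and 4.06 CPM.

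The feedback inhibitors were lower as well, with 1 exception. Dusp1, a nuclear phosphatase that switches off stress-activated MAP kinases, was at 518.4 and 280.8 CPM (log2 -0.88, -0.90 to -0.86). Dusp6, the phosphatase dedicated to ERK, was at 44.4 and 52.7 CPM (0.25, 0.19 to 0.30) and was the 1 counted member higher in old CAR-gated cells. Dusp2 was under the minimum (0.717 and 0.35 CPM). Zfp36 (tristetraprolin), which marks AU-rich messenger RNAs for decay, was at 307.4 and 205.6 CPM (-0.58), and its relative Zfp36l1 at 1438 and 1176 CPM (-0.29). Socs3, an inhibitor of gp130 and JAK signalling, was at 436.8 and 270.5 CPM (-0.69). Nfkbia, which encodes the NF-kB inhibitor IkB-alpha, was at 351.7 and 247.6 CPM (-0.51).

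All 5 growth arrest genes were counted and lower in old CAR-gated cells, 2 of them at least 2-fold. Gadd45g, a stress sensor that activates p38 and JNK kinases, was at 370.2 and 149 CPM, 2.48-fold lower (log2 -1.31, -1.34 to -1.28). Btg2, an antiproliferative gene induced by p53, was at 261.5 and 124 CPM, 2.11-fold lower (-1.08, -1.10 to -1.05). Gadd45a was at 62.2 and 34.4 CPM (-0.85), Btg1 at 315.6 and 219.7 CPM (-0.52) and Gadd45b at 168 and 118 CPM (-0.51). Ratios thus ranged from -1.79 to 0.25 within 1 gate, so the members were not lower by a common factor.

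Between CAR-gated cells of 1 library, the other members were higher where Fos, Jun and Junb were high. CAR-gated cells with at least 4000 UMIs were ranked on the summed share of Fos, Jun and Junb, and the highest 20% were set against the lowest 20% (2310 adult and 2237 old cells at each end, with median UMIs of 8210 and 8013 in adult and 8128 and 7999 in old cells). Each of the other 32 members had the higher CPM in the highest 20% in both libraries. The ranking used 3 members, so this describes how the rest followed them and is no test. The same count was not made over all genes, so whether the members followed more than other genes is not known. Among genes counted in this gate, Atf3 followed most, at 7.72 and 211 CPM at the ends of the adult ranking and 2.77 and 92.9 CPM at those of the old ranking (log2 4.77 and 5.07). Fosb followed with log2 4.58 and 4.68, Ier3 with 4.29 and 2.95, Ier2 with 4.29 and 3.88, and Dusp1 with 3.85 and 3.87. At the other end, Gadd45a differed by 0.36 and 0.40 and Dusp6 by 1.07 and 0.78. Gadd45a was thus lower in the old library by a log2 ratio of -0.85 while it hardly varied along the ranking. The 3 ranking genes together stood at 13620 CPM in the highest adult and 7524 CPM in the highest old cells, and at 399 and 168 CPM in the lowest. For these 3 genes both ends of the ranking thus lay lower in the old library. Other members went both ways at the lowest end, with Egr1 at 211 (adult) and 290 CPM (old) and Dusp1 at 86.5 and 51.3 CPM.

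**Figure D3:**
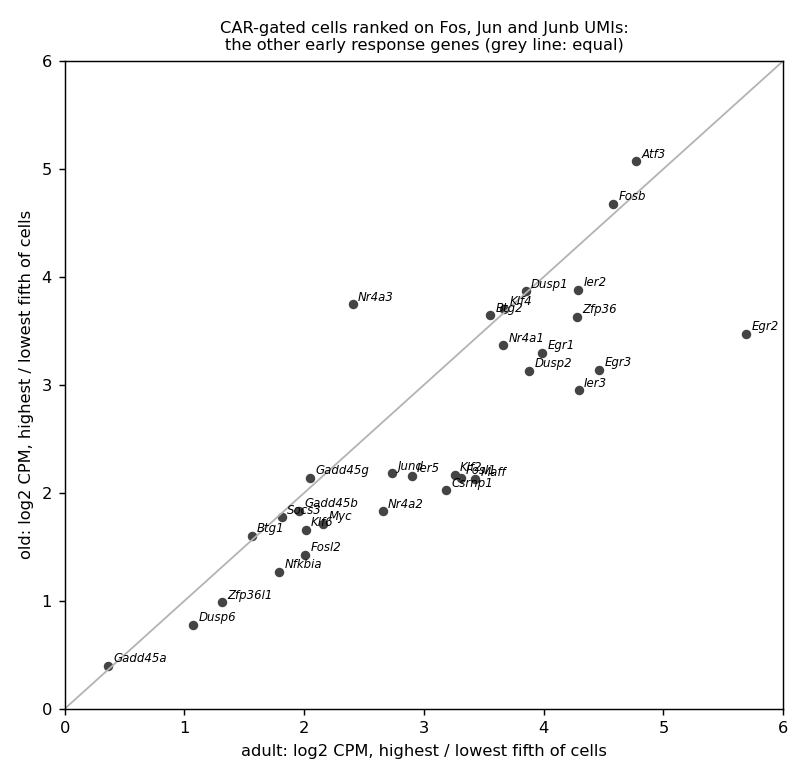
Log2 ratio of CPM in the highest over the lowest 20% of CAR-gated cells ranked on Fos, Jun and Junb, adult library on the x axis and old library on the y axis, 1 point per other member and equality as the grey line. All 32 points are above 0 in both libraries, from Gadd45a (0.36 and 0.40) to Egr2 (5.69 and 3.47, under the counting minimum). Genes outside the set were not ranked in this way.

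Depth and mitochondrial share moved with these values. CAR-gated cells of the old library had the lower summed share in each of 5 depth bands, for example 1.53% and 1.001% at 4000 to 8000 UMIs and 1.27% and 0.858% at 16000 or more. In osteolineage cells the gap depended on depth. The shares were 0.842% (adult) and 0.507% (old, 21 cells) at 2000 to 4000 UMIs and 0.861% and 0.835% at 4000 to 8000. They were 0.784% and 0.798% at 8000 to 16000, and 1.12% and 0.651% at 16000 or more. Median depth in that gate was 19434 UMIs (adult) and 11789 (old). In pericytes or smooth muscle cells the old share was the higher at 2000 to 4000 UMIs, 1.18% (adult, 62 cells) and 1.43% (old, 30 cells). It was the lower at 4000 to 8000 UMIs (2.44% and 1.23%) and at 8000 to 16000 (1.99% and 1.14%). In CAR-gated cells the summed share went from 2.11% in adult cells under 1% mitochondrial UMIs to 0.942% in those between 5% and 10%, and from 1.15% to 0.774% in old cells. Median mitochondrial shares of the gate were 2.26% and 2.33%. Endothelial cells had 1.66% and 0.860% under 1% mitochondrial UMIs but 0.574% and 0.695% between 3% and 5%. The direction in endothelial cells therefore differed between mitochondrial bands.

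**Figure D4:**
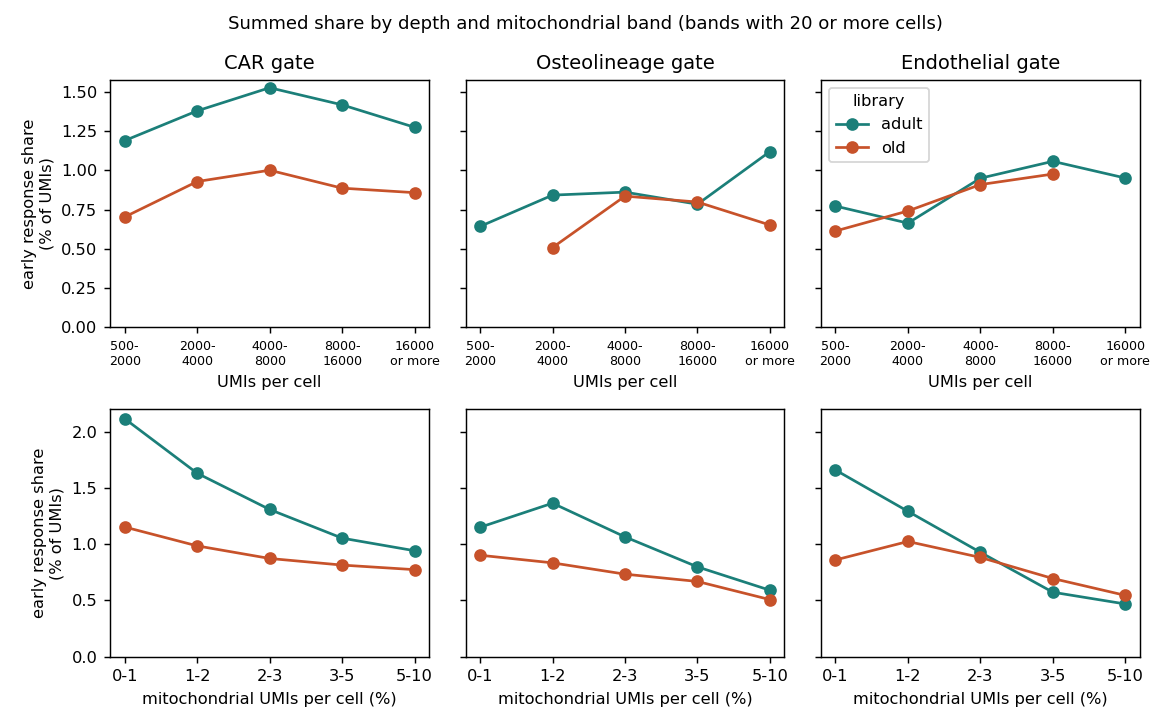
Summed early response share (percent of UMIs) by depth band (top, UMIs per cell) and mitochondrial band (bottom, percent of UMIs) in CAR-gated, osteolineage and endothelial cells, 1 line per library and bands of at least 20 cells. The old line is below the adult line in every CAR panel band, while the lines meet or cross in osteolineage cells by depth and in endothelial cells by both measures.

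Pericytes or smooth muscle cells, the contractile cells of the vessel wall, had the widest differences. All 28 members counted were lower in the old library and 13 were at least 2-fold lower (median log2 -0.88), against 3.71% of 4443 genes past 2-fold and 44.2% lower by any amount. None was at least 2-fold higher, against 4.84% of genes. Gadd45b was at 455.9 CPM (adult) and 85.2 CPM (old), 5.35-fold lower (-2.42, -2.74 to -2.11). Klf4, which is known to drive the switch of smooth muscle cells away from the contractile state, was at 432.4 and 129 CPM (-1.75, -2.01 to -1.49). Csrnp1 was at 74.9 and 23.2 CPM (-1.69), Nr4a2 at 167 and 51.9 CPM (-1.69) and Ier2 at 516.7 and 166 CPM (-1.64). The 3 farthest up were still lower, namely Klf2 (327.2 and 294.5 CPM, -0.15), Zfp36l1 (-0.27) and Btg1 (-0.35). Marker levels of the gate were close between the libraries, with Rgs5 at 15831 and 12885 CPM and Acta2 at 1973 and 2307 CPM. The old cells carried more haemoglobin RNA (2439 against 71.7 CPM), whose part in the result was not tested.

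Osteolineage cells, which build bone matrix, held members past 2-fold in both directions. Of 26 members counted, 22 were lower in the old library and 7 at least 2-fold lower (median log2 -0.49), against 4.41% of 3653 genes past 2-fold and 36.2% lower by any amount, with a median of 0.25 over all genes. Relative to that median the members thus lay lower still. Atf3 was at 390.7 and 83.0 CPM (-2.24, -2.35 to -2.12), Nr4a2 at 96.0 and 26.8 CPM (-1.84), Dusp1 at 268 and 92.1 CPM (-1.54), Klf4 at 383 and 152 CPM (-1.33) and Zfp36 at 300.3 and 128 CPM (-1.23). Fos, at 2416 and 1037 CPM (-1.22), and Btg2 (-1.22) completed the 7. Against them, 2 members were at least 2-fold higher, beside 14.6% of all genes. Dusp6 was at 12.3 CPM (adult) and 59.1 CPM (old), 4.79-fold higher (2.26, 2.06 to 2.46), and Egr3 at 16.2 and 60.3 CPM, 3.72-fold higher (1.90, 1.71 to 2.08). Both reached the counting minimum in the old library only. Zfp36l1 was at 350.1 and 646.4 CPM (0.88). The gate held different cells at each age by its own markers, as Bglap (osteocalcin) was at 25026 and 5828 CPM and Spp1 (osteopontin) at 4409 and 50575 CPM. The part of these markers in the member values was not tested. At 4000 to 12000 UMIs, 4 members were at least 2-fold lower, the median was -0.21 and the summed share -0.033, with Fos at -0.51, Zfp36 at -0.30, Btg2 at -0.65 and Klf4 at -0.84.

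Cells passing both the CAR and the osteolineage limit were few in the old library (61 cells). Of 24 members counted, 17 were lower in the old library and 5 at least 2-fold lower (median log2 -0.29), against 3.67% of 4117 genes and 40.7% lower by any amount, with a median of 0.14 over all genes. The lowest were Atf3 (164 and 47.0 CPM, -1.81), Btg2 (205 and 71.8 CPM, -1.51), Klf4 (180.3 and 79.8 CPM, -1.18), Ier5 (118 and 55.9 CPM, -1.08) and Dusp1 (407.7 and 202 CPM, -1.01). None was at least 2-fold higher, against 6.51% of genes, and the highest were Dusp6 (30.3 and 52.3 CPM, 0.79), Egr1 (906.5 and 1256 CPM, 0.47) and Zfp36l1 (0.19). Klf4, Atf3, Btg2 and Dusp1 were thus at least 2-fold lower both here and in the osteolineage gate. Bglap also differed here, at 9426 and 479.7 CPM, and median depth was 7085 UMIs (adult) and 17434 (old). At 4000 to 12000 UMIs, 11 members were lower with a median of -0.054 and Dusp1 at -0.31. With CAR-cell RNA subtracted 6 were lower (median 0.32), and against genes of like length the median was 0.033, so the direction in this gate rested on the processing.

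Endothelial cells, the lining of marrow vessels, held members in both directions. Of 26 members counted, 20 were lower in the old library but 1 was at least 2-fold lower (median log2 -0.30), against 4.66% of 4548 genes and 53.6% lower by any amount. That gene was Fos, at 1025 and 501.6 CPM (-1.03, -1.14 to -0.92). Next were Nr4a1 (97.3 and 55.4 CPM, -0.81), Socs3 (139 and 79.9 CPM, -0.80), Nr4a2 (70.0 and 41.0 CPM, -0.77) and Gadd45b (65.0 and 39.6 CPM, -0.72). The flow-induced factors lay on the other side. Klf4 was at 307.2 and 716.8 CPM, 2.33-fold higher in the old library (1.22, 1.11 to 1.33), and Klf2 at 571.8 and 1154 CPM, 2.02-fold higher (1.01, 0.93 to 1.10), where 6.29% of genes were at least 2-fold higher. Klf6 was at 206.9 and 279.9 CPM (0.44). The shares of members past 2-fold, lower or higher, lay near those of all genes in this gate. Klf2 was under 2-fold, at 0.90 to 0.99, in 5 of 12 alternatives and Fos, at -0.99 to -0.80, in 4 of 12, while Klf4 stayed between 1.14 and 1.45. The gate's make-up also differed. Stab2, a marker of sinusoidal vessels, was at 1372 and 195 CPM, and Ly6c1 and Ly6a, higher in arterial vessels, were at 649 and 1817 and at 537.3 and 1521 CPM. Whether the KLF values move with vessel type or with age was not tested.

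Erythroid cells, the red cell precursors, had 14 members counted, 10 of them lower in the old library, beside 27.3% of 2836 genes lower (median log2 -0.22, against 0.31 over all genes). None was at least 2-fold lower, where 3.46% of genes were, and Klf6 was at least 2-fold higher, where 9.49% were. Egr1 was at 126 and 69.5 CPM (-0.85), Nfkbia at 411.5 and 280.3 CPM (-0.55), Btg2 at 391.1 and 278.8 CPM (-0.49), Dusp1 at 118 and 85.2 CPM (-0.47) and Fos at 201 and 149 CPM (-0.43). Higher were Klf6 (26.5 and 55.4 CPM, 1.06, 0.51 to 1.66), Ier2 (70.8 and 116 CPM, 0.71) and Junb (109 and 155 CPM, 0.51). RNA of CAR cells was also seen here, with the sum of Cxcl12, Lepr and Adipoq at 6.44% of its CAR-gated level in adult and 3.85% in old cells. With CAR-cell RNA subtracted in that proportion, the log2 ratio of the summed share in erythroid cells was 0.065 in place of -0.25, and 5 members were lower in place of 10. Fos was then at 44.3 CPM (adult) and 110 CPM (old), a log2 ratio of 1.31. At 4000 to 12000 UMIs 6 members were at least 2-fold lower, and 3 as a mean of per-cell CPM. Klf6 stood under 2-fold, at 0.59 to 0.92, in 5 of 9 alternatives.

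The megakaryocyte gate, named for the platelet-forming cells, was the gate in which most members were higher. Of 21 counted, 8 were lower in the old library (median log2 0.30), against 49% of 2930 genes. At least 2-fold lower were 2 members, against 9.42% of genes, and 2 were at least 2-fold higher, against 12.6%. Both shares of members lay near those of all genes. Nfkbia was at 85.9 and 32.5 CPM (-1.40, -1.96 to -0.87) and Fos at 476.4 and 231 CPM (-1.04), followed by Zfp36l1 (268 and 176 CPM, -0.61), Socs3 (62.6 and 45.8 CPM, -0.45) and Egr1 (260.6 and 213 CPM, -0.29). Zfp36 was at 199 and 626.2 CPM, 3.15-fold higher in the old library (1.65, 1.44 to 1.88), Jund at 351.2 and 778.3 CPM, 2.22-fold higher (1.15, 0.98 to 1.32), and Klf6 at 284 and 528 CPM (0.89). Itga2b, a marker of the gate, was at 1702 and 2890 CPM, and CAR-cell RNA stood at 12.7% and 7.19% of its CAR-gated level. Most barcodes of the gate were small, with medians of 1575 (adult) and 1692 (old) UMIs and 649 and 722 genes. Whether they are whole megakaryocytes was not tested. In megakaryocytes with at least 1000 genes the log2 ratio of the summed share was -0.062 in place of 0.29, so the direction of that value depended on which cells entered it. At 4000 to 12000 UMIs it was -0.67, no member was at least 2-fold higher and Jund was at -0.41. With CAR-cell RNA subtracted no member was at least 2-fold lower, and Fos was at 168 and 158 CPM (-0.082).

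Side by side, the 7 gates gave 165 gene values for the 31 members counted in at least 1 gate. Of these values, 130 were lower in the old library. The 2-fold call was met by 35 of the lower values and by 7 of the higher ones. Over all genes counted, the gates ranged from 27.3% to 53.6% lower, from 1.72% to 9.42% at least 2-fold lower and from 2.63% to 14.6% at least 2-fold higher. Fosl1, Egr2, Myc and Dusp2 were counted in none. Of the 13 members counted in all 7 gates, Fos was the 1 gene lower in each before any subtraction of CAR-cell RNA, with log2 ratios of -1.26 in CAR-gated, -0.72 in CAR and osteolineage, -1.22 in osteolineage, -1.03 in endothelial, -1.11 in pericyte or smooth muscle, -0.43 in erythroid and -1.04 in megakaryocyte-gated cells. A further 11 members were lower wherever they were counted, but in fewer gates. With that RNA subtracted Fos was at 1.31 in erythroid, -0.082 in megakaryocyte and 0.0086 in CAR and osteolineage cells, so its lower level there was not held. It was then still lower in osteolineage (-1.22), endothelial (-1.22) and pericyte or smooth muscle cells (-1.10). In endothelial cells the part subtracted was 7.43% (adult) and 13.7% (old) of the CAR-gated level, with Cxcl12 at 697 and 1428 CPM. Whether that Cxcl12 is free RNA or made by the endothelial cells was not tested, so their subtracted value may be off. For Klf4 the sign itself depended on the gate, from -1.75 in pericytes or smooth muscle cells to 1.22 in endothelial cells.

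**Figure D5:**
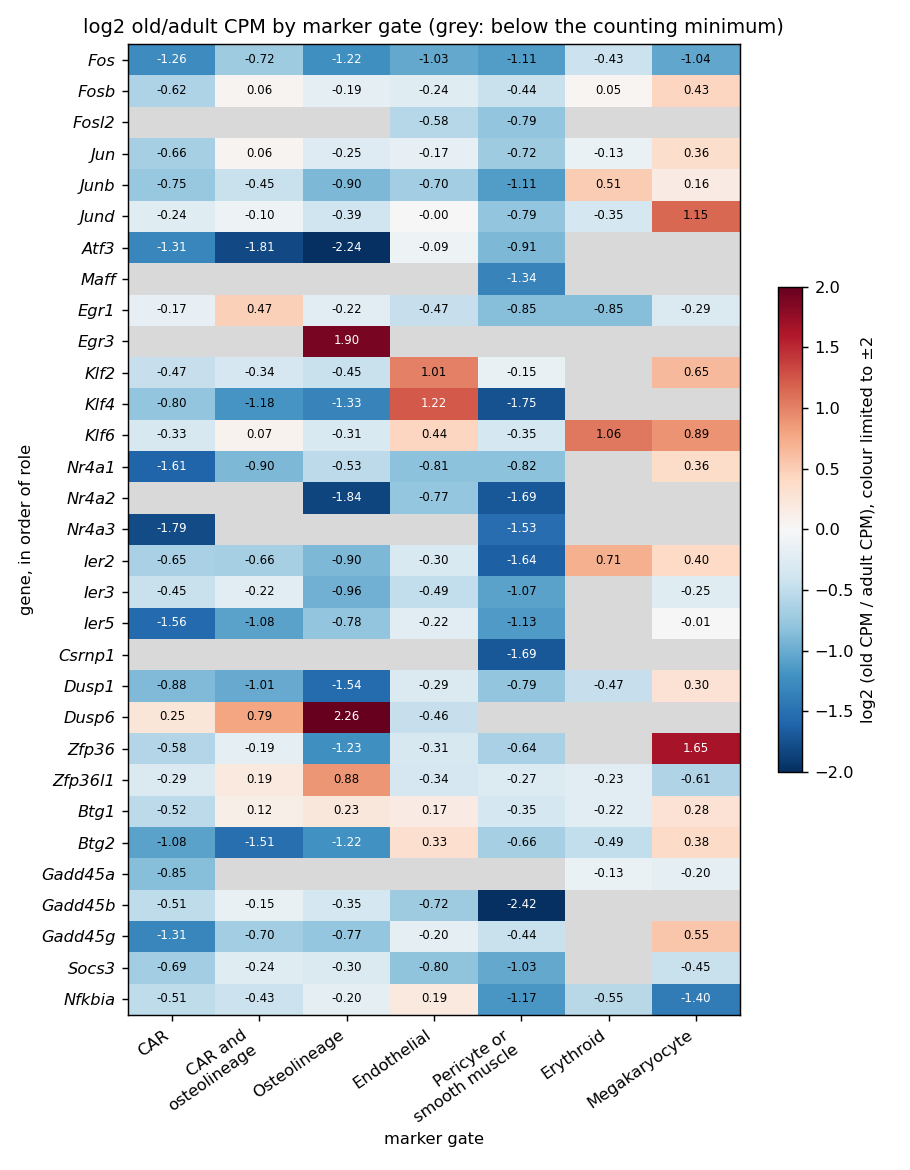
Log2 old over adult CPM of the 31 counted members (rows) in 7 marker gates (columns), with colour limited to 2 in either direction and grey for genes under the counting minimum. The values are before subtraction of CAR-cell RNA, which moves Fos in erythroid cells from -0.43 to 1.31. The endothelial Klf2 (1.01) and Klf4 (1.22), osteolineage Dusp6 (2.26) and Egr3 (1.90), and megakaryocyte Zfp36 (1.65) stand on the other side.

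Other genes of the same response, and of the pathway that leads to it, were set beside the members in CAR-gated cells. Of 41 other early response genes, 24 were counted and 23 were lower in the old library, 2 of them at least 2-fold (median log2 -0.51). Over all genes counted, 49.1% were lower and 1.72% at least 2-fold lower. The list was chosen with earlier results of these data known, so it is no independent check. Rgs2, a brake on G protein signalling, was at 126 and 39.4 CPM (-1.68), Cebpb at 417 and 170.2 CPM (-1.29), Pim3 at 54.6 and 30.9 CPM (-0.82) and Ccn2, a matrix protein of the YAP response, at 289.4 and 169 CPM (-0.77). The 4 farthest up were Odc1, the first enzyme of polyamine synthesis (52.9 and 73.5 CPM, 0.47), Nfkbiz (-0.05), Irf1 (-0.11) and Errfi1 (-0.19). Kinases and factors upstream lay near the median of all genes. Of 23, 15 were counted, 5 were lower and 10 higher, none by 2-fold (median 0.03). The lowest were Map2k2 (-0.15), Rps6ka5 (-0.10), Nfkb1 (-0.05) and Mapk8 (-0.04), and the highest Rps6ka3 (131 and 192 CPM, 0.54), Mapk9 (0.39), Mapk14 (0.37) and Elk4 (0.29). Against genes of like length 9 were lower and 6 higher, and at a minimum of 10 CPM 8 were lower. The lists were not tested against each other.

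Heat shock genes, a separate stress response, went in both directions in CAR-gated cells. Of 12, 11 were counted, 7 lower and 4 higher in the old library (median log2 -0.09). Hspa8 was at 948.2 and 599 CPM (-0.66), Dnaja1 at 393.6 and 283.2 CPM (-0.47), Dnajb1 at 105 and 78.5 CPM (-0.41) and Hsp90ab1 at 933.1 and 767.7 CPM (-0.28). The inducible Hspa1b was at 29.4 and 79.6 CPM (1.44) and Hspa1a at 23.9 and 55.6 CPM (1.22), both at least 2-fold higher, followed by Hsph1 (0.63) and Hspb1 (0.10). Hspa1a and Hspa1b are near-identical copies, so their UMIs may be split between them.

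Gene length moved with the ratio in CAR-gated cells. The members are short, with a median of 3960 bases against 46979 bases over all genes counted. The shortest of 10 length bins had a median log2 ratio of -0.25 and the longest 0.18, so the members' median of -0.66 lay below that of the shortest bin. With the median of each gene's length bin subtracted, the members' median was -0.41. Btg2 was then under 2-fold (-0.82), and the other 6 members past 2-fold in this gate stayed past it in all 11 alternatives. In pericytes or smooth muscle cells the same subtraction put Fos (-0.66), Junb (-0.66), Ier3 (-0.61), Ier5 (-0.67), Socs3 (-0.58) and Nfkbia (-0.71) under 2-fold. Of the 13 members called at least 2-fold lower there, 7 stayed past 2-fold in all alternatives.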

How the data were processed

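For each library the authors deposited raw UMI counts per gene and cell barcode. Per the submitters' processing notes the counts were made with Cell Ranger on GRCm39, and the file headers give version 7.0.1. The sources used here do not state the annotation release or the barcode filter. No barcode held under 500 UMIs.

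Members and gene lists were chosen with earlier results of these data known. A marker score is the mean over a list's markers of the natural log of 1 plus UMIs per 10000. Limits were 1.8 for CAR and osteolineage, 1.2 for plasma cells and 1 for other lists, with at least 4 markers detected. They were set after the markers' values were seen, without reading the members. A cell had to pass exactly 1 gate. Osteolineage cells also had a CAR score under 1.5, and the weaker erythroid group had an erythroid score of at least 0.4, a CAR score under 1 and an osteolineage score under 0.6. No doublet caller was run, and cells passing several gates were left out, except that those passing the CAR and osteolineage gates alone form a group of their own. Cells of 2 types in 1 droplet below a limit can remain.

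UMIs were summed per gate and library and divided by the total to give CPM. The old CPM was set over the adult CPM on a log2 scale, with exact conditional binomial intervals. The rule for calls was run on simulated counts drawn from the adult CAR-gated sums, with known fold changes and no spread between cells or libraries. That run does not cover the smaller gates. The text names every counted member in CAR-gated cells, the 5 lowest and 3 highest ratios in other gates, and the 4 lowest and 4 highest of each other list. Myc, Dusp2 and other uncounted members, marker genes, and Fos and Btg2 where outside these ranks were added after their values were seen. Free RNA was estimated from Cxcl12, Lepr and Adipoq. Gene lengths came from an annotation of another build, matched by Ensembl identifier. The libraries held 208637421 adult and 229917243 old UMIs. Python 3.11.15, NumPy 2.4.6, SciPy 1.17.1, pandas 2.3.3 and Matplotlib 3.10.9 were used. Alternatives covered the counting minimum, cell filters, cell weights, depth, gates, totals, centring, gene length and free RNA, and the closing section gives their effect.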

Additional observations from a re-analysis of the deposited data

Results flagged for a closer look

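Klf4 had opposite directions in 2 gates of the vessel wall, with a log2 ratio of old over adult CPM of -1.75 in pericytes or smooth muscle cells and 1.22 in endothelial cells. Zfp36 was opposite in osteolineage cells (-1.23) and megakaryocytes (1.65). The summed share of early response genes was higher in the old library in megakaryocytes (0.29) and lower in the other 6 gates compared. Each of these is a difference between gates that was not tested, because each age has 1 library. Klf4 and Zfp36 were noted as members at least 2-fold lower in some gate and at least 2-fold higher in another. The summed share was noted because its interval in megakaryocytes lay above 0. Other members, such as Junb and Btg2, also had intervals beyond 0 on both sides, without a 2-fold call in both directions.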

How the results depend on the processing

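No paired analysis was possible because each age has 1 library, and for the same reason no library could be left out. In CAR-gated cells the log2 ratio of the summed share stayed between -0.65 and -0.63 over 10 alternatives; with mitochondrial share at most 5%, in cells of 4000 to 12000 UMIs, minus the median over all genes and with score limits 0.3 higher (an alternative chosen after seeing the data) it was -0.65, -0.65, -0.65 and -0.64. In cells of 4000 to 12000 UMIs it was 0.089 (reversed) in the CAR and osteolineage gate, -0.033 in osteolineage, -0.064 in endothelial, -0.91 in pericyte or smooth muscle, -0.83 in erythroid and -0.67 (reversed) in megakaryocyte-gated cells. The counts of members at least 2-fold lower were then 3, 4, 0 and 6 in the CAR and osteolineage, osteolineage, endothelial and erythroid gates. As a mean of per-cell CPM the ratio was -0.19 in CAR and osteolineage, -0.38 in osteolineage, -0.76 in pericyte or smooth muscle, -0.60 in erythroid and -0.084 (reversed) in megakaryocyte-gated cells, with 3 erythroid and 1 megakaryocyte member at least 2-fold lower. With at least 1000 genes per cell it was -0.062 (reversed) in megakaryocytes, and 1 erythroid member was at least 2-fold lower. With mitochondrial share at most 5% it was -0.13 in endothelial cells, and with 1 more marker needed -0.89 in pericytes or smooth muscle cells. Totals without immunoglobulin, haemoglobin, ribosomal and mitochondrial genes gave -0.26 in CAR and osteolineage, -0.59 in osteolineage and -0.42 in erythroid cells (1 erythroid member at least 2-fold lower). Minus the median over all genes the ratio was -0.37, -0.82, -0.051, -0.95 and -0.56 in CAR and osteolineage, osteolineage, endothelial, pericyte or smooth muscle and erythroid cells, with 12 osteolineage, 0 endothelial and 1 erythroid member at least 2-fold lower. Score limits 0.3 higher gave -0.51 in erythroid cells (3 members) and 0.20 in megakaryocytes. With free RNA of CAR cells subtracted the ratio was 0.56 (reversed) in the CAR and osteolineage gate, whose cells express the CAR genes themselves, -0.14 in endothelial, 0.065 (reversed) in erythroid and 0.74 in megakaryocyte-gated cells, with 3, 3 and 0 members at least 2-fold lower in the CAR and osteolineage, endothelial and megakaryocyte gates. Against genes of like length the counts were 3, 4, 0, 8, 1 and 1 in the CAR and osteolineage, osteolineage, endothelial, pericyte or smooth muscle, erythroid and megakaryocyte gates. A minimum of 10 CPM gave 8 in CAR and osteolineage and 2 in endothelial cells, and a minimum of 200 UMIs gave 1 in megakaryocytes. The members' median log2 ratio reversed to 0.033 against genes of like length and 0.32 with free RNA subtracted in the CAR and osteolineage gate, to 0.41 with free RNA subtracted in erythroid cells, and to -0.039 as a mean per cell, -0.037 with at least 1000 genes and -0.44 at 4000 to 12000 UMIs in megakaryocytes, where Jund reversed to -0.41. In CAR-gated cells the upstream genes lower in the old library numbered 8 at a minimum of 10 CPM and 9 against genes of like length, and the heat shock genes 4 against genes of like length. The causes were not tested. No alternative reversed the summed share in the CAR, osteolineage, endothelial or pericyte or smooth muscle gates. Single bands of depth or mitochondrial share did reverse it in the osteolineage, endothelial and pericyte or smooth muscle gates, but not in the CAR gate. Few cells limit the CAR and osteolineage, pericyte and blood cell values.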
